A study of Mus musculus with 4 samples.

Results

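The 100 probes described here were those reduced most in Emerald-positive mouse embryonic stem cells on both of the days measured, out of 42006 probes on the array. For each probe, the log2 ratio of the sample signal (Cy3) to the reference signal (Cy5) was taken from the scanner's processed signals, and the Emerald-negative ratio was subtracted from the Emerald-positive one on each day. A probe could be chosen if its Cy3 signal, net of local background, exceeded the mean plus 2.6 SD of the negative-control spots on both Emerald-negative arrays, which 32881 probes (78.3%) did. Among those, the 100 with the lowest score D were kept, where D is the less negative of the differences on the 2 days. The Emerald-positive minus Emerald-negative difference therefore chose the members. It is given below as a description, without a test.

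The cells were male 129/Sv embryonic stem cells of 1 clone, which the sample titles call ES[129.3:Zscan4cEmgfp(7)]. The design text names the cells transfected with this reporter MC1, and how the names relate is not given in the sources used here. All of them, in both groups, carried the fluorescent protein Emerald under the promoter of Zscan4c after selection in 5 ug/ml blasticidin. Sorting by fluorescence gave 2 groups with 2 samples each, Emerald-positive cells (reporter on) and Emerald-negative cells (reporter off). The numbers 1 and 2 of the replicates stand for different days, with both fractions sorted on each. Each sample was hybridised in Cy3 against the same Cy5-labelled pool of RNA from 11 mouse cell lines, in the same dye orientation on all 4 arrays. Whether each day had its own culture is not given in the sources used here, and p-values cover no more than the spread among these samples. The cells come from 1 clone, which limits what the groups can stand for.

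Zscan4 genes encode proteins with a SCAN domain and zinc fingers. They are known for a burst of expression when the embryo's own genome is first switched on, and for flickering on in a small and changing fraction of cultured embryonic stem cells, where they are linked to telomere maintenance. Cells are known to enter and leave this state, so that most cells of a culture have the reporter off at any time. In sorted populations, fewer cells with a transcript and less of it per cell cannot be told apart.

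None of the 100 identifiers matched the gene table, and 0 of the 60-base sequences lay inside a promoter window or miRNA hairpin of the RefSeq tables given. The members are therefore named by probe, and markers of embryonic stem cells or other cell types could not be read. Sequences are given 5′ to 3′ as the scanner tables list them. The 10 printed first, together with the overlapping pair that follows them, have the lowest D, so that they were reduced most on the day of their smaller reduction. Capitals mark AATAAA, the hexamer known as the main polyadenylation signal near the 3′ end of messenger RNAs, which is present in 1 of these 10.
Z00010489-1: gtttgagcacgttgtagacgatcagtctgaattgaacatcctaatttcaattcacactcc
Z00063266-1: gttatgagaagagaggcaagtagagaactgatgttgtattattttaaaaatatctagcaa
Z00006521-1: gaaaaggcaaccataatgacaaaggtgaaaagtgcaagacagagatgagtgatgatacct
Z00035371-1: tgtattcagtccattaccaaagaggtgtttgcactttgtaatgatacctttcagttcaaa
Z00002086-1: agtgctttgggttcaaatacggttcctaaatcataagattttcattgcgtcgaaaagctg
Z00018820-1: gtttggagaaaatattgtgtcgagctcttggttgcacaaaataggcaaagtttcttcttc
Z00021597-1: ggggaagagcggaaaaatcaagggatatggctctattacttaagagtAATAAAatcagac
Z00046387-1: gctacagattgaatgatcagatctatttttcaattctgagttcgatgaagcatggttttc
Z00043882-1: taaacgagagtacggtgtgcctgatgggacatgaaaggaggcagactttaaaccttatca
Z00021599-1: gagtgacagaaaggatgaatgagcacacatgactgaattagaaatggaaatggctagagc

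The remaining probes among the 12 lowest, Z00055094-1 and Z00022872-1, overlap each other. They share 56 bases at 100% identity, in capitals below, shifted by 4 bases. No other members were linked on the same strand by at least 24 aligned bases at 80% identity or more, so the 100 probes form 99 sequence groups.
Z00055094-1: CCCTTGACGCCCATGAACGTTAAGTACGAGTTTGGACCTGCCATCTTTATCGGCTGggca
Z00022872-1: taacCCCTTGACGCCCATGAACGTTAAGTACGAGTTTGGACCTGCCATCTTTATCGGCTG

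Signals of the members lay above background on nearly every array. The negative-control level was a net Cy3 signal of 61.6 and 33.8 on the arrays of Emerald-positive replicates 1 and 2, and 65.2 and 58.3 on those of Emerald-negative replicates 1 and 2. Of all probes, whether or not they passed the filter, 79.3% to 93.6% exceeded it, depending on the array. The filter itself required every member to exceed it on both Emerald-negative arrays. On the Emerald-positive arrays, all 100 members exceeded it for replicate 2 and 98 did for replicate 1. The exceptions, Z00016692-1 and Z00054944-1, had net Cy3 signals of 50.5 and 52.1 there. Saturated member spots numbered 0. With 4 arrays, the precision of each value is limited by their number.

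The reductions were moderate and reached 2-fold on both days in few members. D ran from -2.02 to -0.65, with a median of -0.79 and quartiles of -0.91 and -0.70. On the day of replicate 1 the median difference was -0.83 (1.78-fold lower) and the range was -2.02 to -0.65. On the day of replicate 2 the median was -0.96 (1.94-fold lower) and the range was -2.83 to -0.65. Over all 32881 probes that passed the filter, the medians were 0.00 and -0.02 and the SDs 0.30 and 0.33. Just 14 members were lower by 2-fold or more on both days, which is 0.0426% of the probes that passed the filter, and 1 member, Z00010489-1, was at -1.5 or lower on both. These sizes depend on the background subtraction: without it the median differences of the members were -0.39 and -0.37 on the days of replicates 1 and 2, the mean difference at Z00010489-1 was -0.65 in place of -2.14, and those of the 24 named probes ran from -1.0 to -0.16. The folds given below are with background subtracted. The decline of the scores was flat near the end of the list. Just inside it, Z00026399-1 and Z00004931-1 had a D of -0.65, while the nearest probes outside, Z00018366-1 and Z00030408-1, had -0.64. On the opposite side, 458 probes that passed the filter were higher in Emerald-positive cells by 0.65 (1.56-fold) or more on both days.

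Probe Z00010489-1 had the lowest D. Its log2 ratio to the pool was -0.07 and -0.04 in Emerald-positive replicates 1 and 2 against 1.95 and 2.23 in Emerald-negative replicates 1 and 2, which gives means of -0.06 ± 0.02 and 2.09 ± 0.20 (SD, n = 2). Its net Cy3 signals were 106 and 79.6 against 394 and 347, while the pool's net Cy5 signals were 207 and 158 against 229 and 156. The probe was thus near the pool's level in reporter-positive cells and well above it in reporter-negative cells on both days, by 4.05-fold and 4.83-fold. Probe Z00063266-1 showed the same shape, with log2 ratios of 0.25 and -0.09 in Emerald-positive cells against 1.69 and 1.81 in Emerald-negative cells. It was lower by 2.72-fold on the day of replicate 1 and by 3.73-fold on that of replicate 2.

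The overlapping pair gave nearly equal readings, as separate spots on the same stretch. For Z00055094-1 the log2 ratios were 1.21 and 1.51 in Emerald-positive cells against 2.53 and 2.93 in Emerald-negative cells (means 1.36 ± 0.21 and 2.73 ± 0.28, SD, n = 2). For Z00022872-1 they were 1.19 and 1.56 against 2.35 and 2.99 (means 1.38 ± 0.26 and 2.67 ± 0.45, SD, n = 2). Both stayed above the pool in all 4 samples, and the reductions were 2.50-fold and 2.68-fold for the former and 2.24-fold and 2.69-fold for the latter on the days of replicates 1 and 2. These readings share a target and are not independent of each other.

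Among the other probes with the lowest D, most kept 1 side of the pool in every sample. Probe Z00006521-1 read 1.86 and 2.15 in Emerald-positive cells against 3.04 and 3.44 in Emerald-negative cells. Probe Z00002086-1 read 1.33 and 1.5 against 2.48 and 2.71, with means of 1.41 ± 0.12 and 2.59 ± 0.16 (SD, n = 2). Probe Z00021599-1 read 3.16 and 2.37 against 4.21 and 3.46. These 3 probes were above the pool in every sample, and the lower reading in each fraction of Z00021599-1 came from replicate 2. Probe Z00035371-1 read -2.27 and -2.48 against -1.11 and -1.18, so that it was below the pool throughout and still 2.25-fold and 2.46-fold lower in Emerald-positive cells.

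A further group crossed the level of the pool. Z00018820-1 read -0.10 and -0.59 in Emerald-positive cells against 1.02 and 0.63 in Emerald-negative cells. Z00021597-1 read -0.11 and -0.47 against 0.97 and 1.22. Z00043882-1 read -0.37 and -0.47 against 0.89 and 0.59. All 3 were below the pool in both reporter-positive samples and above it in both reporter-negative samples. Z00046387-1, also among the 12 lowest, stayed above the pool in all 4 samples and was uneven between days. It read 1.58 and 0.07 in Emerald-positive cells (mean 0.83 ± 1.07, SD, n = 2) against 2.65 and 2.15. That is 2.11-fold lower on the day of replicate 1 and 4.23-fold on that of replicate 2.

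Days differed by more than 0.5 on the log2 scale in 11 members, and in 37 they differed by less than 0.1. The median absolute difference between days was 0.15 among the members and 0.14 over the probes that passed the filter. The reduction was the larger on the day of replicate 2 in 68 members and on the day of replicate 1 in 32. For these counts of members, shares over the probes that passed the filter are not given. Over those probes the SD of the difference was 0.30 on the day of replicate 1 and 0.33 on that of replicate 2. The widest gap was at Z00033292-1, named here after its values were seen. It read -0.57 and -0.81 in Emerald-positive cells against 0.24 and 2.02 in Emerald-negative cells, so that Emerald-negative replicate 2 alone stood high and the reductions were 1.75-fold and 7.13-fold. Its group mean of 1.13 ± 1.26 (SD, n = 2) in Emerald-negative cells rests on that array.

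Splitting each ratio into its channels placed the reduction mainly in the sample channel. In the processed Cy3 signal alone, 100 of the 100 members were lower in Emerald-positive cells on both days, with median differences of -0.81 and -0.83 on the days of replicates 1 and 2. The same medians over the probes that passed the filter were 0.03 and -0.05. The sample channel is 1 side of the ratio that chose the members, so this too is a description. For 13 members the Cy3 signal was lower by 2-fold or more on both days.

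The reference channel should hold the same RNA on every array. Among the members its difference ran from -0.42 to 0.67 for replicate 1 and from -0.84 to 0.67 for replicate 2. Its median difference among the members was 0.00 on the day of replicate 1 and 0.12 on the day of replicate 2, against 0.02 and 0.03 over the probes that passed the filter. The pool's signal was higher on the Emerald-positive array in 50 members on the day of replicate 1 and in 84 on the day of replicate 2, and in 41 on both. Shares over the probes that passed the filter are not given for these counts, so they are not read as particular to the members. A higher pool signal lowers the ratio without any change in the sample, and the median share of the difference found in Cy5 was -0.0331% and 12.8%. That share exceeded 50% in 2 members on the day of replicate 1, in 1 on the day of replicate 2 and in 0 on both days. It exceeded 25% on both days in 2 members.

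The clearest case was Z00048546-1. On the day of replicate 1 its net Cy3 signal was 201 in both fractions, while the pool's Cy5 signal was 4055 on the Emerald-positive array and 2550 on the Emerald-negative one. On that day 84.8% of its difference of -0.70 lay in Cy5, and on the day of replicate 2 the share was 37.9%. At Z00025932-1, named after its values were seen, the share was 74.2% on the day of replicate 1 and 15.1% on that of replicate 2. Whether these Cy5 differences come from the spot, the hybridisation or the labelled pool was not tested.

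On the Emerald-negative arrays, which the choice by reduction favours as high, more of the members were above the pool than below it. There, 76 and 75 members were above it for replicates 1 and 2, with median log2 ratios of 1.0 and 0.9. On the Emerald-positive arrays 52 and 47 members were above it, against 49.7% and 49.4% of the probes that passed the filter. The members' median log2 ratios there were 0.06 and -0.11. Ratios of the members to the pool ranged widely. The mean log2 ratio over the 4 arrays ran from -3.76 to 4.47, with a median of 0.43, against a median of 0.00 over the probes that passed the filter. On the scale of the selection rule, 45 members were above the pool in all 4 samples and 23 were below it in all 4, against 36.1% and 35.7% of the probes that passed the filter. Another 20 were above the pool in both Emerald-negative samples and below it in both Emerald-positive samples, a pattern that the choice by reduction favours and that 1.48% of the probes that passed the filter had. The other 12 had mixed patterns. Median D was -0.80, -0.73 and -0.82 in these classes, in the order given.

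The ratio to the pool was tested with limma on loess-normalized values, as the mean of both fractions against 0, with Benjamini-Hochberg adjustment over all probes. This average was not the contrast that chose the members, although the filter asked for stem cell signal on the Emerald-negative arrays. Above the pool, 54 members passed an adjusted p of 0.05, where 25.5% of all probes and 30% of those that passed the filter did. Below it, 25 members passed, against 23.8% and 24.7%. The share below was thus near the background share, and the share above was larger than it. The average includes the Emerald-negative arrays, where the filter and the choice by reduction favour high values, so these shares are a description. On the Emerald-positive arrays, as given above, the share of members above the pool was near that of the probes that passed the filter. Among the 54, the log2 ratio ran from 0.18 to 4.40 with a median of 1.11, and 30 were at 2-fold or more. Among the 25 it ran from -3.31 to -0.49 with a median of -1.16, and 14 were at 2-fold or more. Leaving out each array in turn gave 49 to 53 members above and 23 to 27 below. The pool is 1 RNA preparation whose own spread is not in this test. Since the dyes were not swapped, a dye effect of a probe cannot be told apart from its abundance relative to the pool.

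The members highest against the pool were Z00004931-1, Z00035601-1, Z00021599-1, Z00030768-1, Z00004988-1 and Z00006521-1. Probe Z00004931-1 read 3.63 and 4.46 in Emerald-positive cells against 4.69 and 5.11 in Emerald-negative cells, and its mean ratio in the limma fit was 4.40 ± 0.15 (SE, adjusted p = 7.25e-05). Probe Z00035601-1 read 3.65 and 2.71 against 4.58 and 4.01, with a fitted ratio of 3.12 ± 0.26 (SE, adjusted p = 0.00079 by limma). Probe Z00030768-1 read 2.73 and 2.37 against 3.44 and 3.08. All of these read far above the pool in either fraction. Probe Z00004988-1 read 2.14 and 2.32 against 2.97 and 3.19 in the same order of samples. For some of the high ratios the pool gave little signal: the Cy5 value was not above its negative-control level on 1 array for Z00006521-1, on 1 for Z00021599-1 and on 2 for Z00034977-1, so those ratios depend on a dim reference.

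At the other end were Z00016692-1, Z00035658-1, Z00048546-1, Z00052877-1, Z00059215-1 and Z00035371-1. Probe Z00016692-1 read -4.49 and -3.86 in Emerald-positive cells against -3.64 and -3.04 in Emerald-negative cells, with a fitted ratio of -3.31 ± 0.13 (SE, adjusted p = 0.000108 by limma). Its net Cy3 signals were 50.5 and 60.7 against 81.6 and 105, of which the first was below the negative-control level. Probe Z00035658-1 read -3.59 and -3.40 against -2.89 and -1.80, and its differences of -0.70 and -1.60 were uneven between days. These stem cell signals were a small fraction of the pool's, which was bright for each of them. Probe Z00048546-1 read -3.08 and -3.38 against -2.38 and -2.59. Probe Z00052877-1 read -1.98 and -2.57 against -1.09 and -1.72, and Z00059215-1 read -1.94 and -2.28 against -1.25 and -1.61. Those last 2 were even between days, at 1.85-fold and 1.81-fold lower and at 1.61-fold and 1.59-fold lower.

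The difference between days, replicate 2 minus replicate 1 with the fraction as a term, called 0 members and 0.0% of all probes by limma at an adjusted p of 0.05, with a lowest adjusted p of 0.12. At an unadjusted p under 0.05, 41 members were lower on the day of replicate 2 and 18 were higher, while 10.5% and 6.38% of all probes were. The spread that this test uses is the disagreement between the days' differences, with 1 residual degree of freedom. The rule used those differences, though it set no bound on the larger reduction, so these unadjusted counts are a description. The median day difference was -0.16 among the members, from -1.06 to 1.06, against -0.02 over the probes that passed the filter. Lower values on the day of replicate 2 occurred in 61 members, against 56.4% of the probes that passed the filter. Within Emerald-positive cells the median change between days was -0.18, and within Emerald-negative cells it was -0.07.

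For the members in the limma fit of Emerald-positive against Emerald-negative cells, the fraction called is given only to place the selection. Without the replicate number as a block, 4 members were called lower at an adjusted p of 0.05, and 0.00952% of all probes were. These were Z00010489-1, Z00063266-1, Z00035371-1 and Z00002086-1. With the block, 49 members were called lower, and 0.117% of all probes were, with the 4 among them. With any 1 array left out, 0 were called, where the lone sample of a group is assumed to vary like the other group. Nothing is read from these counts, since the same contrast chose the members. On this loess-normalized scale all 100 remained lower on average, from -1.89 to -0.52 with a median of -0.82.

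The members' sequences differed in composition from those of the probes that passed the filter, taken as a whole. Median GC content was 40.0% (quartiles 35.0% and 43.3%), against 45.0% (38.3% and 50%) over the probes that passed the filter, and 76 members lay under that 45.0% while 48.4% of the probes that passed the filter did. Low GC content was not particular to the members. Its median was 38.3% at ranks 101 to 200 of D. At ranks 201 to 500 and at ranks 501 to 1000 it was 40.0%. The longest run of A or T had a median of 4 bases in the members, against 3 over the probes that passed the filter. AATAAA on the listed strand was present in 20 members (20%), against 6.88% of the probes that passed the filter and 6.75% of all probes. Its reverse complement TTTATT was present in 5.0%, against 3.46%. The common variant ATTAAA was in 2 members (2.0%), against 3.10%, and its reverse complement TTTAAT was in 0, against 2.23%. The hexamer and its variant together occurred in 21 members, and the bases after the hexamer numbered from 1 to 41, with a median of 15. These are letters in a probe window, not sites known to act, and no test was made of the shares.

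After Z00021597-1, printed above, the 6 members with AATAAA that had the lowest D are shown for where the hexamer sits in the window, again in capitals. They were picked by D after the shares were seen. In some, such as Z00006442-1, it lies near the 3′ end of the probe, and in others, such as Z00053694-1, near the 5′ end.
Z00031467-1: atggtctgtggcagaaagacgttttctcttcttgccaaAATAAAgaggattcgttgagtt
Z00053694-1: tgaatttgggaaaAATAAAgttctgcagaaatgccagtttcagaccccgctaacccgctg
Z00062214-1: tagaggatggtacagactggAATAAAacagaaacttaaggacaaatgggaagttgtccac
Z00006442-1: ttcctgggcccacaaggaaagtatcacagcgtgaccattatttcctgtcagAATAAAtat
Z00044910-1: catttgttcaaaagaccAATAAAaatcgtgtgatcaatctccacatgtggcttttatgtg
Z00035601-1: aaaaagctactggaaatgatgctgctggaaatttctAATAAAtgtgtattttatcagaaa

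The hexamer is itself made of A and T, so its share was also taken at matched GC content and along the ranking. Among probes that passed the filter with GC content between the members' quartiles, 9.65% of 14173 held AATAAA, against 20.3% of the 64 members in that range. At ranks 101 to 200 of D the share was 13.0%, at ranks 201 to 500 it was 13.3% and at ranks 501 to 1000 it was 8.6%. Over all probes lower on both days it was 7.23%, and over the 458 probes higher by the mirrored threshold it was 9.39%, with a median GC content of 41.7%. The share was thus higher in the members than in each of these sets. The GC-matched set and the set lower on both days include members themselves. Among the members, median D was -0.84 in the 21 with either hexamer and -0.77 in the 79 without. TAAAT, the reverse complement of ATTTA, was in 18.0% of members against 7.91%, and 6 of those 18 also held AATAAA. The listed-strand form ATTTA, the core of AU-rich elements known from unstable messenger RNAs, was in 5.0% against 6.89%. AGCACTT, the site that pairs with the seed of miR-294-3p, a miRNA abundant in embryonic stem cells, was in 0 members and 0.566% of the probes that passed the filter, and its reverse complement AAGTGCT was in 0 against 0.474%.

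Probes outside the 100 that share sequence with a member gave a second reading for some targets. Under the same limits on alignment, 8 members were linked to such a probe on either strand. The closest relation was between Z00004931-1 and Z00034455-1, which align over 60 bases at 96.7% identity. Capitals mark the aligned stretch.
Z00004931-1: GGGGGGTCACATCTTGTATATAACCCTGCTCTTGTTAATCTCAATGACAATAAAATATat
Z00034455-1: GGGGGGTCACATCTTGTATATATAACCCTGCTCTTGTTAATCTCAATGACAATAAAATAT

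Probe Z00034455-1 read 3.81 and 4.64 in Emerald-positive cells against 4.51 and 5.09 in Emerald-negative cells, so that its differences were -0.70 and -0.45 and its rank by D was 348. The member read differences of -1.06 and -0.65 on the same days. In Cy5 alone the member differed by 0.02 and -0.84. Its pool signal was thus dimmer on the Emerald-positive array of replicate 2, which makes the reduction in the ratio smaller. Both probes were lower in Emerald-positive cells on both days and far above the pool in all samples, and the member's reading was the larger. A shorter overlap joined Z00009280-1 to Z00046349-1, over 34 bases at 97.1% identity, in capitals.
Z00009280-1: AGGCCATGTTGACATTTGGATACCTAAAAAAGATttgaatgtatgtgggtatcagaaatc
Z00046349-1: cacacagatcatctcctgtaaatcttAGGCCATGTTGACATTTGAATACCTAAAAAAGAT

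The member Z00009280-1 had differences of -0.66 and -0.68 on the days of replicates 1 and 2. Its partner had -0.49 and -0.68, at rank 274. These readings were close on the day of replicate 2 and differed by more on that of replicate 1. On the opposite strand, Z00031760-1 carries the reverse complement of 34 bases of the member Z00031583-1, again in capitals.
Z00031583-1: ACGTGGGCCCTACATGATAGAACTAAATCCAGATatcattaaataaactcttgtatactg
Z00031760-1: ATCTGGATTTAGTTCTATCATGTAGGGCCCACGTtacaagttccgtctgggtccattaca

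The member read 1.77 and 1.82 in Emerald-positive cells against 2.52 and 3.00 in Emerald-negative cells. The opposite-strand probe read 0.09 and 0.16 against 0.16 and 0.55, so its differences were -0.07 and -0.40. The listed-strand probe was thus above the pool in every sample, and the opposite-strand probe was near it on the array of each sample except Emerald-negative replicate 2. The remaining links were shorter or less alike, at 24 to 32 aligned bases.

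Spot position on the array was checked for the members, all of which lie on 1 spot each. The spots within 4 rows and 4 columns of a member, a median of 38 spots, had median differences between -0.11 and 0.11, with a median over members of -0.01. The medians around the members thus lay nearer to no difference than the members' own reductions. By corner of the array, 27 members lay in the upper left, 23 in the upper right, 31 in the lower left and 19 in the lower right, where 22.1%, 28.2%, 21.8% and 27.9% of the probes that passed the filter lay. Both left corners thus held more of the members than those shares, and both right corners fewer. Whether spot position played a part was not tested. There were 5 pairs of members within 4 rows and columns of each other.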

How the data were processed

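Groups and replicate numbers came from the sample titles. The deposited scanner tables of the 4 arrays give each spot's intensity in both channels, unlogged. Per the file headers they also give processed intensities, after background subtraction and dye normalization by the scanner software. The headers name Feature Extraction 7.5.1 and the design text 9.5.1.1. The value table that the authors deposited is in log10 units of unknown centring, and its direction between arrays was taken from its correlation with the processed ratio (r from 0.975 to 0.996 across probes, as deviations from the 4-array mean). The software's mark for spots above background was also set for negative-control spots, so the level from those spots was used.

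The members and lists were chosen with earlier results of these data known. Spots of a probe were averaged, control spots left out, and the rule applied to the processed signals. The tests used mean signals corrected with normexp (offset 50) and loess within arrays, with limma 3.58.1 in R 4.3.3. The 403 outlier spot values were left out, which left 400 probes, 1 of them a member, without all 4 values. Same-numbered samples have the same day in their descriptions, so the number pairs them. Across probes, same-numbered samples deviated together from the group means (r = 0.475). Probe sequences were compared with blastn 2.17.0 (word size 11). The limma and sequence steps were tested on simulated data.

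The rule for named probes took the 12 lowest D, members linked by sequence, the 6 highest and 6 lowest mean ratios to the pool, and 2 probes on each side of the threshold, 24 in all. It also allowed for probes with a gene name, called between days, or not above background on both Emerald-positive arrays, of which there were 0. Planned gene lists and cell type markers were not analysed here, since no probe had a gene name. Columns of per-sample values left unused numbered 0. Alternatives covered background correction, normalization, filters, the selection rule, the replicate block and leaving out each array.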

Additional observations from a re-analysis of the deposited data

How the results depend on the processing

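Of the 100 members, 40 stayed among the 100 lowest when background was not subtracted and 63 when the mean of both days replaced the less negative one. Loess-normalized ratios kept 86, the sample channel alone 70, and the authors' deposited table all 100. In all 8 alternatives of the rule 25 members stayed, 7 of them among the 12 lowest. Without background subtraction the median differences shrank to -0.39 on the day of replicate 1 and -0.37 on that of replicate 2, where the ratio is compressed by construction. For replicate 2 the median was -0.85 with loess and -0.83 in the sample channel alone. Members lower on both days numbered 99 with loess and 100 in the other starting values. The 1 not counted with loess, Z00055690-1, had values on 3 of the 4 arrays there, so both days could not be read. Of the 24 named probes, the mean difference moved by more than the spread between replicates in 22 without background subtraction, in 11 in the sample channel alone and in 10 with loess, and none of these changed sign. The authors' deposited table gives the same differences as the processed ratios and is no separate check, and the value of either day alone cannot move past that spread by construction. The count of members called lower between fractions by limma was 4. It was 49 with the replicate block, and 1 with the authors' value table, no background correction, a normexp offset of 10 or processed signals without loess. It was 2 with median centring, the negative-control filter or outlier spots kept, 3 with an intensity trend or scaling between arrays, and 0 without any 1 array. The cause of these shifts was not tested. The counts against the pool stayed within 49 to 54 above and 23 to 32 below under every alternative run, and the day contrast called 0 in each. No slide block was possible because each array had its own slide. Leaving out an array leaves the day contrast no residual degrees of freedom, so it was not run, and the authors' table holds no ratio to the pool to test. Signal near the negative-control level limits at least 11 members, which were under 2 times it on an Emerald-negative array. That count leaves out the Emerald-positive arrays, where the members read lower. For replicate 1 there, Z00010489-1 (106), Z00021597-1 (82.0) and Z00043882-1 (93.4) were under 2 times the level of 61.6. For replicate 2, Z00063266-1 (59.3) was under 2 times the level of 33.8. The other probes among the 12 lowest D exceeded 2 times the level on both Emerald-positive arrays.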
